A study of Lotus japonicus with 36 samples.

Results

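A set of 225 transcripts that were abundant in untreated root nodules of the legume Lotus japonicus and had a much lower level after 6 days of nitrate is described here. From the deposited FPKM values (fragments per kilobase, scaled to sequencing depth), 1 transcript model was taken per locus, the one with the highest mean over all 36 libraries. A locus was kept when its mean in untreated nodules (T0) was at least 200 FPKM and its mean on day 6 of nitrate (T6) was at least 4-fold lower, after adding 1 FPKM to both means. Of 41299 loci, 815 reached the T0 threshold and 225 of these met both conditions. Both conditions thus used measured FPKM in the T0 and T6 libraries, so levels in T0 and T6 are given as a description. Tests were made only between groups that these conditions did not use, though the choice of 1 model per locus drew on all 36 libraries.

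All nodules came from the genotype MG-20. Groups T1 to T6 were taken on days 1 to 6 of 10 mM KNO3, groups R1 to R5 at 1 to 5 days from the removal of nitrate, and T0 was untreated at 4 weeks after inoculation. Each group held 3 libraries, described by the series as biological replicates. How many days of nitrate came before withdrawal is not stated by the labels. Older untreated nodules were not among the samples, so nitrate days and plant age cannot be told apart.

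Root nodules are organs in which rhizobia, housed inside infected plant cells, reduce atmospheric nitrogen to ammonium. In exchange the plant supplies carbon and keeps free oxygen low with leghemoglobin, one of the most abundant proteins of a working nodule. Nitrate in the root medium lowers nitrogen fixation in legumes and, when supplied for days, brings on early nodule senescence. The model IDs of these files carry no gene names, so no role is given to any member and nodule marker genes could not be looked up.

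Library totals lay between 34194054 and 45795038 counts. Within groups, libraries correlated at 0.953 to 0.975 on average on the log2 scale. In the deposited estimated counts 49.6% of values were not whole, as occurs when reads are divided over models, and 136 of the 225 members had whole counts in fewer than 50% of libraries. Values of such members can belong in part to a near-identical copy. In 59 members at least 90% of the counts were whole, and these are given separately beside the main counts. In a bulk sample, fewer cells of a type and less RNA per cell cannot be told apart.

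One library stood apart for a subset of the members. In 29 of the 225 members, T0 replicate 1 was between 8.12 and 10.1 times the mean of T0 replicates 2 and 3, with a median of 9.03 times. In the other 196 members this ratio lay between 0.815 and 1.27. The 29 members had a summed level of 125346 FPKM in T0 replicate 1, 11656 FPKM in replicate 2 and 16420 FPKM in replicate 3. All 29 had IDs between Lj0g3v0027999 and Lj0g3v0029289, stood alone at their locus, and had whole counts in fewer than 50% of libraries. Their median length was 125 bp, against 910 bp in the other 196 members. Without T0 replicate 1 the rule gave 203 members, among them 192 of the 225, and none of the 29 was kept. The division into 29 and 196 members was made after these values were seen. In each of the 12 comparisons tested, all calls of the fit of all libraries lay among the 196. By DESeq2 0 of the 29 were called as well, where 4 of them had no adjusted p. Both fits estimate the spread of a model over all libraries, and the high T0 replicate 1 widens it for the 29. Calls among the 29 were thus unlikely from the start, and their lack does not show that levels of the 29 were steady.

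Lj0g3v0028569.1, 1 of the 2 members with the lowest R5 to T0 ratio, shows the pattern of the 29. It had 2785, 253 and 416 FPKM in the 3 T0 libraries, and its other values were 419.5, 229.7 and 229.8 FPKM in T1, 265, 224 and 270.0 FPKM in T6, 144, 1241 and 146 FPKM in R4 and 204, 235 and 187 FPKM in R5. Lj0g3v0028599.1, the other of the 2, had 149, 1290.4 and 155 FPKM in R4 and 2845, 253 and 415 FPKM in T0. In both models T0 replicate 1 and R4 replicate 2 were the only high libraries, and the other T0 libraries lay within the range of T1 to T5. The same 2 libraries were high in the sum over the 29 members, which in R4 was 7506 FPKM in replicate 1, 57291 FPKM in replicate 2 and 7520 FPKM in replicate 3. Among the 590 loci that reached the T0 threshold without meeting the fall, 51 were over 5 times higher in T0 replicate 1 than in the mean of the other T0 libraries. Of these 51, 15 had IDs from Lj0g3v0027 to Lj0g3v0029. The part of divided reads in this excess was not tested.

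Members near the limits of the rule were close to loci outside it. Just inside the T0 threshold were Lj0g3v0232609.1 at 200.2 FPKM and Lj4g3v0338190.1 at 202.4 FPKM, and just outside were Lj0g3v0312089.1 at 198.7 FPKM and Lj1g3v3137850.1 at 196.7 FPKM. The T6 to T0 ratio was 0.248 for Lj0g3v0028759.1 and 0.249 for Lj0g3v0028909.1 just inside, and 0.2514 for Lj0g3v0028819.1 and 0.2516 for Lj0g3v0028669.1 just outside. All 4 loci at the ratio limit come from the stretch of IDs that holds the 29 members.

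The members spanned a wide range of levels. In T0, 76 members averaged at least 1000 FPKM. The highest was Lj5g3v0035290.1, of 471 bp, with 2839, 1505 and 2331 FPKM in T6 and 53717, 51829.9 and 41465 FPKM in T0. None of its counts was whole, and it is the higher of 2 models at its locus. Lj5g3v0465970.1 had 174, 69.8 and 131 FPKM in T6 and 30569, 30120.2 and 27436 FPKM in T0. The order of these top members thus differed between T6 and T0. Lj6g3v0815760.1 had 1399, 542 and 1096 FPKM in T6 and 25307, 22908 and 23452 FPKM in T0. Lj5g3v1427660.1 had 528, 239 and 436 FPKM in T6 and 7772, 7643 and 7192 FPKM in T0. Lj1g3v3441280.1 had 1314, 765 and 1362 FPKM in T6 and 7011, 6446 and 6942 FPKM in T0. No T6 library came near a T0 library in any of these 5 models, and T6 replicate 2 was the lowest T6 library in each.

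**Figure D1:**
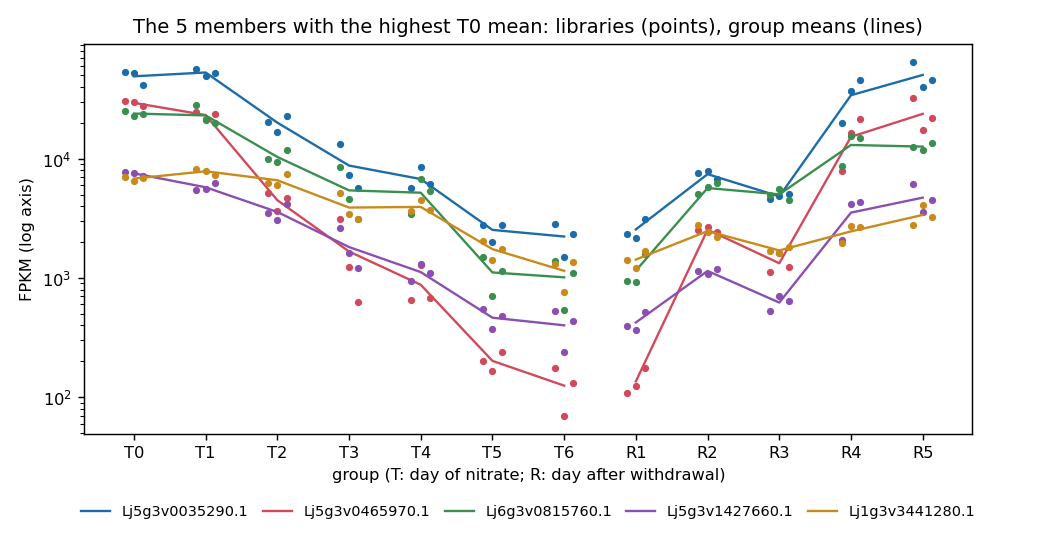
FPKM (log axis) of the 5 members with the highest T0 mean, by group, with a point per library and lines through group means. Lj5g3v0465970.1 lies second in T0 and lowest of the 5 in T5, T6 and R1, and the lines of all 5 models are higher in R5 than in R1.

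The members held a large share of all counts before nitrate and a small one on its last days. All 225 members together took 21.1 ± 1.44% of the counts in T0 (SD, n = 3 here and for the shares that follow), 17.4 ± 0.853% in T1, 9.73 ± 1.03% in T2, 5.63 ± 1.72% in T3, 4.35 ± 0.513% in T4, 2.21 ± 0.273% in T5 and 1.62 ± 0.256% in T6. After withdrawal they took 1.96 ± 0.159% in R1, then 4.64 ± 0.014% in R2 and 3.23 ± 0.165% in R3, before 9.66 ± 3.29% in R4 and 13.7 ± 2.49% in R5. The T3 libraries spread from 4.01% to 7.44%, and T3 replicate 3 lay below 2 of the 3 T4 libraries, at 4.34% and 4.86%. In R4, replicate 1 stood at 5.86%, well under the 11.4% of replicate 2 and the 11.7% of replicate 3. The 5 top members alone took 0.272 ± 0.0893% of counts in T6, against 6.25 ± 0.464% in T0. The 590 other abundant loci moved far less as a sum, with 16.7 ± 1.11% in T6 and 18.6 ± 1.44% in T0.

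**Figure D2:**
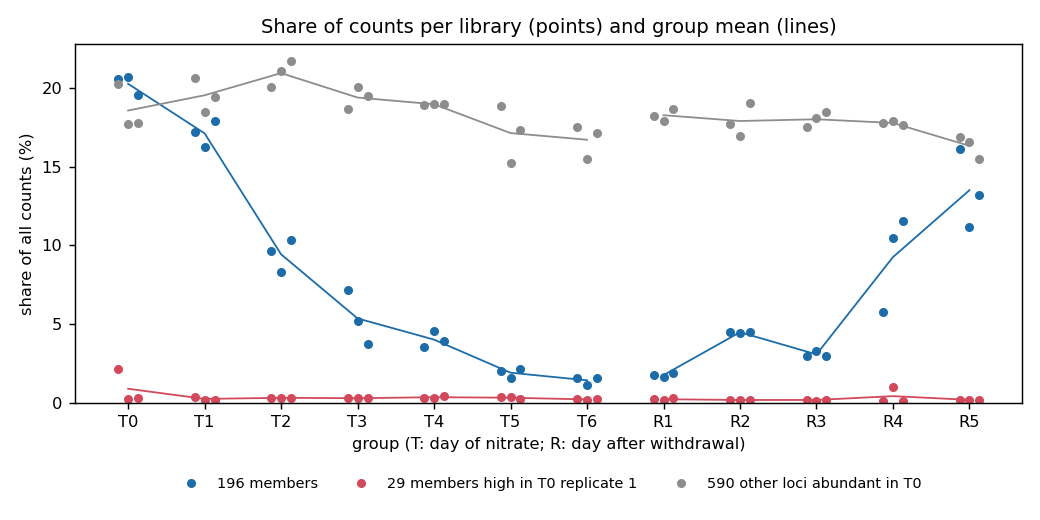
Share of all counts (%) per library (points) and group mean (lines) for the 196 members, the 29 members high in T0 replicate 1 and the 590 other loci abundant in T0. The 196 members fall from day to day under nitrate and regain most of their share in R4 and R5, the 29 members stay near the bottom with 1 high library each in T0 and R4, and the 590 other loci stay between 15% and 22%.

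The fall under nitrate was tested between T5 and T1, which the T0 and T6 conditions of the rule did not use. T1 is the first nitrate day and T5 the day before T6, so falls between them follow in part from the choice of members. The same holds for the single steps from T1 to T5. Shares over all models do not show what that choice alone would give. Of the 225 members, 195 were lower in T5 and 0 were higher, with a median log2 fold change of -2.82. Over all 50475 models tested, 13.6% were called lower, 17.6% were called higher and the median was 0.10. Calls rest on edgeR's quasi-likelihood test with an adjusted p under 0.05 and at least a 2-fold change. At an unadjusted p under 0.05 the count of higher members in this fit of all libraries was also 0, and DESeq2 gave 195 lower and 0 higher. All 195 were among the 196 members that were even across the T0 libraries, where the median was -3.04. Of the 29 members high in T0 replicate 1, 0 were called by edgeR or DESeq2, and their median was 0.46. At an unadjusted p under 0.05, 0 of the 29 passed in the fit of all libraries and 3 were higher when edgeR was fitted to T5 and T1 only, again with 0 called. Among the 59 members with mostly whole counts, 58 were lower.

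Lj1g3v0410100.1 and its neighbour Lj1g3v0410090.1 showed the largest fall. Lj1g3v0410100.1 had 0.43, 0.80 and 0.41 FPKM in T5, against 259, 283 and 295 FPKM in T1 (log2 fold change -8.94 ± 0.84, SE, edgeR adjusted p = 6.93e-10). Its T5 libraries were all near 0, far below those of T1. The 2 models hold identical counts in every library, so which of them the reads came from cannot be told. Lj5g3v0465970.1 had 199.7, 165 and 241 FPKM in T5, against 24379.6, 21660.2 and 23556 FPKM in T1 (log2 fold change -6.76 ± 0.51, SE, edgeR adjusted p = 1.64e-11). Lj5g3v0035290.1, the most abundant member, had 2768, 2019 and 2799 FPKM in T5, against 55986, 49762 and 52567 FPKM in T1 (log2 fold change -4.29 ± 0.34, SE, edgeR adjusted p = 3.22e-11). In both, every T5 library was far below every T1 library, and the fall of Lj5g3v0465970.1 was the steeper.

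Members whose reads were mostly undivided fell too. These examples were chosen after their values were seen, as the 5 highest in T0 with at least 90% whole counts. Lj3g3v1010900.1, of 1369 bp, had 213, 116 and 227 FPKM in T5, against 4643, 3639 and 5662 FPKM in T1 (log2 fold change -4.55 ± 0.37, SE, edgeR adjusted p = 6.47e-11). Lj6g3v1177370.1, of 2711 bp, had 42.9, 41.6 and 65.6 FPKM in T5, against 984, 1046 and 1197 FPKM in T1 (log2 fold change -4.35 ± 0.31, SE, edgeR adjusted p = 5.30e-12). The groups did not overlap in either model. Lj4g3v1388980.1, of 1543 bp, kept more of its level, with 465, 456 and 540.0 FPKM in T5, against 1677, 1564 and 1858 FPKM in T1 (log2 fold change -1.73 ± 0.20, SE, edgeR adjusted p = 3.94e-08). Lj4g3v0336320.1 had 25.2, 31.4 and 27.9 FPKM in T5, against 738, 898 and 736 FPKM in T1 (log2 fold change -4.74 ± 0.45, SE, edgeR adjusted p = 7.67e-10). Lj2g3v3339380.1 had 69.9, 90.5 and 89.1 FPKM in T5, against 1621, 1444 and 1716 FPKM in T1 (log2 fold change -4.20 ± 0.42, SE, edgeR adjusted p = 2.55e-09). All 5 were lower in every T5 library than in any T1 library.

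The 2 members with the least fall from T1 to T5 were both among the 29. Lj0g3v0029279.mrna4, of 41 bp, had 774, 686 and 628 FPKM in T5, against 563, 409.5 and 447 FPKM in T1 (log2 fold change 0.64 ± 0.63, SE, edgeR adjusted p = 0.42). Lj0g3v0028909.1, of 109 bp, had 536, 505 and 416 FPKM in T5, against 416, 275 and 309.8 FPKM in T1 (log2 fold change 0.62 ± 0.62, SE, edgeR adjusted p = 0.429). Neither passed the test. Only 1 of the 196 other members was not lower in T5 than in T1, and it is named here because of that value. Lj0g3v0320349.1, whose counts were all whole, had 109, 99.95 and 135 FPKM in T6 and 924, 1105 and 1033 FPKM in T0. It had 347, 111 and 168 FPKM in T5, against 490.0, 124 and 125 FPKM in T1 (log2 fold change -0.11 ± 0.41, SE, edgeR adjusted p = 0.844). Its groups overlapped, with T1 replicate 1 and T5 replicate 1 both high. Without T1 replicate 1 its log2 fold change was 0.84, without T5 replicate 2 it was 0.19 and without T5 replicate 3 it was 0.07, so its sign depended on single libraries. In T2 it stood at 64.4, 67.5 and 80.4 FPKM and was lower than in T1 (log2 fold change -1.85 ± 0.43, SE, edgeR adjusted p = 0.0034). The size of this change also depends on T1 replicate 1, at 490.0 FPKM against 124 and 125 FPKM in the other T1 libraries. Whether the call holds without that library is not given here.

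The fall was spread over the nitrate days rather than made in a single step. Between T2 and T1, 64 members were lower (2.66% of all models were), with a median log2 fold change of -0.66 over the 225. Between T3 and T2, 55 were lower, against 1.47% of all models, and between T4 and T3, 25 were lower, against 1.1%. Between T5 and T4, 91 were lower, against 2.09%. The median was -0.72 for T3 over T2, -0.33 for T4 over T3 and -0.88 for T5 over T4. Rises were called in 4.57%, 2.3% and 0.917% of all models at the first 3 steps. Among the 225 members there were 0 at each, both by edgeR and by DESeq2, with 0, 1 and 0 members past an unadjusted p under 0.05 in the edgeR fit of all libraries. In edgeR fits of only the groups compared, 3, 2 and 13 members passed that p upward and 0 were called. Those were 3, 0 and 12 of the 29 members high in T0 replicate 1, and 0, 2 and 1 of the other 196. The medians of the 196 were -0.73 for T2 over T1, -0.75 for T3 over T2, -0.42 for T4 over T3 and -0.99 for T5 over T4. Those of the 29 were 0.30, -0.18, 0.36 and -0.01 in the same order. The 2 middle steps depended on single libraries. The T3 over T2 count was 98 without T3 replicate 1, 21 without T3 replicate 3 and 35 without T2 replicate 3. The T4 over T3 count was 11 without T3 replicate 1, 13 without T3 replicate 2, 42 without T3 replicate 3, 14 without T4 replicate 1 and 10 without T4 replicate 3.

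The largest falls at the first step were those of the neighbours Lj0g3v0010149.1 and Lj0g3v0010159.1. Lj0g3v0010159.1, of 754 bp, had 69.0, 61.1 and 50.9 FPKM in T2, against 394, 505 and 547 FPKM in T1 (log2 fold change -3.04 ± 0.59, SE, edgeR adjusted p = 8.39e-04). Lj0g3v0010149.1, of 163 bp, had 13.6, 10.8 and 19.8 FPKM in T2, against 257, 178 and 162 FPKM in T1 (log2 fold change -3.79 ± 0.66, SE, edgeR adjusted p = 3.10e-04). Both were several times below T1 in every T2 library, and both had whole counts in 50% of libraries.

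Other members were not called at the first step and fell later. Lj4g3v0153700.1, of 2206 bp, had 523, 464 and 534 FPKM in T2, against 550.3, 475 and 589 FPKM in T1, and these groups overlapped (log2 fold change -0.13 ± 0.24, SE, edgeR adjusted p = 0.791). By T5 it was at 109.9, 90.6 and 142 FPKM (log2 fold change -2.16 ± 0.25, SE, edgeR adjusted p = 3.76e-08 against T1). Lj0g3v0178769.1, of 1006 bp, had 280.4, 197 and 309.9 FPKM in T5, against 529, 628 and 586 FPKM in T4. Its T5 libraries were all below its T4 libraries (log2 fold change -1.04 ± 0.20, SE, edgeR adjusted p = 6.11e-04 for T5 over T4). These 2 models were chosen after their values were seen, as the highest in T0 with at least 90% whole counts among those that first came below 50% of T0 on day 4 and on day 5.

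One member was higher in T5 than in T4 while the other calls were falls, and it is named for that value. Lj5g3v1514670.1 had 25.04, 34.9 and 36.1 FPKM in T5, against 14.3, 18.9 and 15.2 FPKM in T4 (log2 fold change 1.06 ± 0.28, SE, edgeR adjusted p = 0.0112). Every T5 library was above every T4 library. Over all models 3.77% were called higher at this step. Without T4 replicate 1, T4 replicate 3 or T5 replicate 3 its log2 fold change was 1.00, 0.95 and 0.98, under the fold threshold. Lj5g3v1514670.1 was still lower in T5 than in T1, where it had 123, 120.2 and 155 FPKM (log2 fold change -2.00 ± 0.28, SE, edgeR adjusted p = 9.55e-07).

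Set against T0, as a description, the 196 members stood at a median of 82.9% of their T0 mean in T1, 51.7% in T2, 30.9% in T3, 21.3% in T4, 10.1% in T5 and 7.88% in T6. On day 1, 64 members were still above their T0 mean. The first day from which a member stayed below 50% of T0 was day 1 for 15 members, day 2 for 80, day 3 for 73, day 4 for 17 and day 5 for 11. The 15 early members ended at a median of 1.07% of T0 in T6, and the 11 late ones at 17.6%. After adding 1 FPKM to both means, 121 members were at least 10-fold lower in T6 than in T0, 28 at least 50-fold and 12 at least 100-fold. The widest such ratio was 373-fold. The 29 members high in T0 replicate 1 were already at a median of 27.2% of their T0 mean in T1 and at 35.9% in T5, of a mean that includes the high T0 replicate 1.

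**Figure D3:**
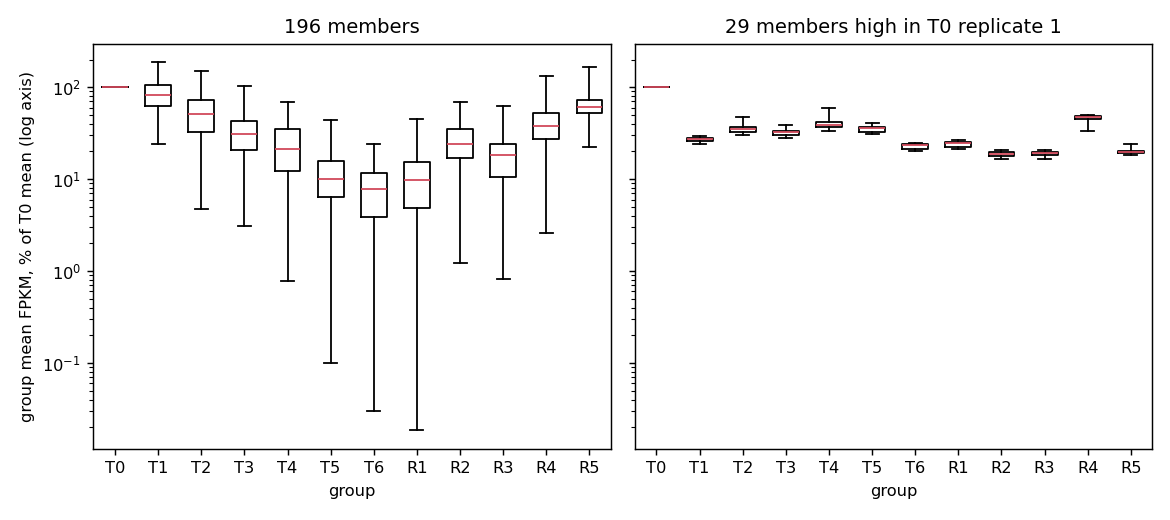
Group mean FPKM as % of the T0 mean (log axis) over the 196 members (left) and over the 29 members high in T0 replicate 1 (right); boxes span the quartiles with the median as a line, and whiskers reach the lowest and highest member. The medians on the left fall on each nitrate day to 7.88% in T6 and climb to 60.9% in R5, while those on the right lie between 18.9% and 47.3% from T1 to R5 without a fall from T1 to T5.

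After withdrawal most members rose again, in R5 mostly to levels below those of T0. Between R5 and R1, 184 of the 225 members were higher and 0 lower, with a median log2 fold change of 2.32. Over all models 14.3% were called higher and 11.4% lower, and the median was -0.01. At an unadjusted p under 0.05 in edgeR 2 members were lower, and DESeq2 called 185 higher and 0 lower. All 184 were among the 196 members, and all 184 had also been lower in T5 than in T1. These 2 comparisons share no library. Of the 29 members high in T0 replicate 1, 0 were called by edgeR or by DESeq2, and their median was -0.44, against 2.44 in the other 196. At an unadjusted p under 0.05, 0 of the 29 passed in the fit of all libraries and 8 were lower when edgeR was fitted to R5 and R1 only, with 0 called. Among the 59 members with mostly whole counts, 52 were higher in R5.

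Lj1g3v0410100.1, with the same counts as Lj1g3v0410090.1, had 459, 197 and 311 FPKM in R5, against 0.14, 0.14 and 0.12 FPKM in R1 (log2 fold change 11.03 ± 0.95, SE, edgeR adjusted p = 6.98e-10). This was the largest fitted rise among the members, and its R1 libraries were all close to 0. Lj5g3v0465970.1 had 31983, 17291 and 21972 FPKM in R5, against 108, 125 and 174 FPKM in R1 (log2 fold change 7.29 ± 0.53, SE, edgeR adjusted p = 5.04e-11). Lj5g3v0035290.1 had 64979, 40168 and 45790.0 FPKM in R5, against 2358, 2158 and 3149 FPKM in R1 (log2 fold change 4.14 ± 0.34, SE, edgeR adjusted p = 2.83e-10). In all of these, R5 replicate 1 was the highest R5 library and the groups did not overlap. Lj1g3v3441280.1 rose least among the 5 top members, with 2766, 4105 and 3255 FPKM in R5, against 1401, 1202 and 1676 FPKM in R1 (log2 fold change 1.05 ± 0.21, SE, edgeR adjusted p = 1.87e-04).

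The rise after withdrawal was uneven from day to day. Between R2 and R1, 130 members were higher, against 4.09% of all models. Between R3 and R2, 28 were lower, against 0.479% of all models, and 0 were higher by edgeR and by DESeq2, where 0.622% of all models rose and 0 members passed an unadjusted p under 0.05 upward in the fit of all libraries. In the fit of R3 and R2 only, 4 did so and 0 were called. The count of 28 was 12 without R2 replicate 1 and 14 without R3 replicate 1. Between R4 and R3, 114 were higher, against 6.29% of all models, and between R5 and R4, 37 were higher, against 1.29%. When only the R4 and R5 libraries were fitted, 0 members were called higher in R5 than in R4 by edgeR, with 67 past an unadjusted p under 0.05 and 38 called by DESeq2 on all libraries. Falls were called in 2.57% of all models at R2 over R1, 2.33% at R4 over R3 and 2.91% at R5 over R4, and in 0 members at each by edgeR and DESeq2. Of the 29 members high in T0 replicate 1, 0 were called at these 4 steps by edgeR or DESeq2. At an unadjusted p under 0.05 in the fit of all libraries, 28 of them were higher in R4 than in R3, 25 were lower in R5 than in R4 and 0 passed at R2 over R1, with R4 replicate 2 the high library. In fits of only the groups compared, 0 of the 29 passed at R4 over R3 or at R5 over R4, and 27 were lower in R2 than in R1 at that p, with 0 called. The unadjusted results of the 29 thus depended on which libraries were fitted. Among the other 196 members, 1 was lower in R4 than in R3 at that p and 0 were lower at the other 2 rising steps. The medians over the 225 members were 1.10 for R2 over R1, -0.35 for R3 over R2, 1.35 for R4 over R3 and 0.40 for R5 over R4. Over the 196 they were 1.26, -0.50, 1.28 and 0.46 in the same order, and over the 29 they were -0.51, 0.06, 1.37 and -1.38.

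**Figure D4:**
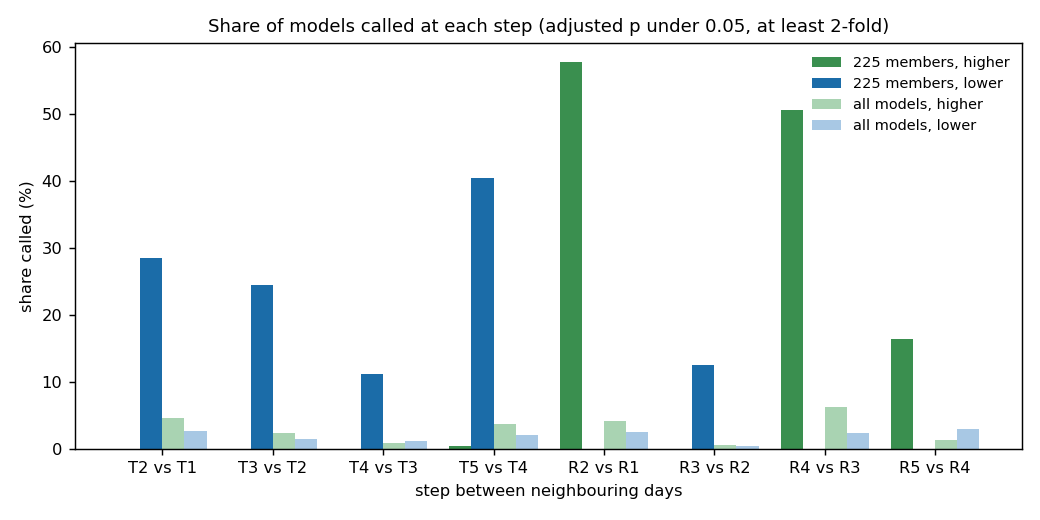
Share of models called (%) at each step between neighbouring days, for the 225 members (dark bars) and all 50475 models (pale bars), higher in green and lower in blue. Member calls are falls at each nitrate step except for 1 rise at T5 over T4, rises at R2 over R1, R4 over R3 and R5 over R4, and falls at R3 over R2.

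The dip on the third day after withdrawal was seen in members with mostly whole counts. Lj3g3v1010900.1 had 248, 319.8 and 267 FPKM in R3, against 983, 853 and 848 FPKM in R2 (log2 fold change -1.65 ± 0.33, SE, edgeR adjusted p = 0.00502). Lj2g3v3339380.1 had 85.9, 118 and 61.3 FPKM in R3, against 341, 323 and 210.1 FPKM in R2 (log2 fold change -1.68 ± 0.38, SE, edgeR adjusted p = 0.0146). Every R3 library was below every R2 library in both, and both were named after their values were seen, as the highest in T0 of the called members with at least 90% whole counts. Both calls were lost on leaving out single libraries. Lj3g3v1010900.1 then reached -1.53 without R3 replicate 1. For Lj2g3v3339380.1 the log2 fold change was between -1.53 and -1.63 without R2 replicate 1 or 2 or R3 replicate 1 or 3, each in turn. Lj5g3v0465970.1, the second highest member in T0, had 1114, 1633 and 1239 FPKM in R3, against 2519, 2691 and 2414 FPKM in R2, and missed the threshold (log2 fold change -0.90 ± 0.40, SE, edgeR adjusted p = 0.393).

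The R4 libraries differed among themselves. Lj4g3v0772160.1 had 119.5, 319.5 and 621 FPKM in R4, against 31.6, 56.5 and 42.1 FPKM in R3 (log2 fold change 3.10 ± 0.43, SE, edgeR adjusted p = 1.07e-05). Lj4g3v0336320.1 had 477, 1297 and 1718 FPKM in R4, against 166, 196 and 150.4 FPKM in R3 (log2 fold change 2.86 ± 0.41, SE, edgeR adjusted p = 1.69e-05). In both, R4 replicate 1 was well below the other R4 libraries but still above all R3 libraries. As in the summed share, replicates of R4 and R5 were spread more widely than those of R1 to R3.

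Some members were not called higher after withdrawal. Of the 195 members that were lower in T5 than in T1, 11 were not called higher in R5 than in R1. In 8 of these the adjusted p was under 0.05 and the log2 fold change, between 0.70 and 0.99, was below the threshold. Among these, Lj1g3v3442640.1 stood at 87.9% of its T0 mean in R5 and 45.6% in R1, Lj1g3v4515410.1 at 66.5% in R5 and 35.9% in R1, and Lj0g3v0275969.1 at 51.1% in R5 and 23.0% in R1. The first 2 lay above the 60.9% median of the 196 members in R5, from R1 levels above the 9.73% median. The other 8 of the 11 stood between 27.3% and 48.5% of T0 in R5. Lj5g3v1206680.1 changed by 0.15 ± 0.16 on the log2 scale (SE), with an edgeR adjusted p of 0.48. The remaining members, the neighbours Lj1g3v1785990.1 and Lj1g3v1785980.1, had every R5 library below every R1 library. Over all 50475 models this held for 13233. Among the 225 members it held for 17, of which 15 were among the 29 high in T0 replicate 1. Lj1g3v1785990.1 had 216, 241 and 179.7 FPKM in R5, against 277, 263 and 275 FPKM in R1 (log2 fold change -0.54 ± 0.22, SE, edgeR adjusted p = 0.0452), a change under the fold threshold, where 11.4% of all models were called lower. Lj1g3v1785980.1 had 162, 184 and 136 FPKM in R5, against 209, 200.02 and 209.6 FPKM in R1 (log2 fold change -0.55 ± 0.22, SE, edgeR adjusted p = 0.0434). These members were named after their values were seen.

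Late withdrawal was also set against late nitrate. Between R5 and T5, 179 members were higher and 0 lower by edgeR, with the same counts by DESeq2 and 0 lower at an unadjusted p under 0.05 in the fit of all libraries. Over all models 13.3% were called higher and 12.7% lower. The median log2 fold change of the 225 members was 2.42, and that of all models was -0.08. All 179 were among the 196 members, whose median was 2.58. The 29 members high in T0 replicate 1 had a median of -0.90, and in 28 of them every R5 library was below every T5 library. Over all 50475 models this held for 12096. When edgeR was fitted to R5 and T5 only, all 29 were lower at an unadjusted p under 0.05 and 1 of them was called lower, beside 179 members called higher. The largest rise was again that of Lj1g3v0410100.1 and Lj1g3v0410090.1. Lj1g3v0410100.1 had 459, 197 and 311 FPKM in R5, against 0.43, 0.80 and 0.41 FPKM in T5 (log2 fold change 9.22 ± 0.85, SE, edgeR adjusted p = 1.68e-09).

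**Figure D5:**
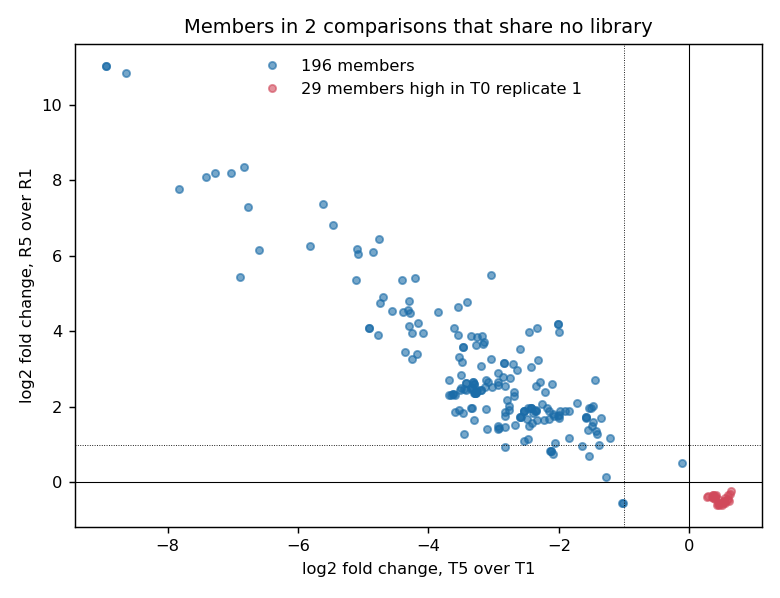
Fitted log2 fold change of R5 over R1 against that of T5 over T1 for each of the 225 members, with the 196 members in blue and the 29 members high in T0 replicate 1 in red; dotted lines mark the fold threshold. The blue points lie almost all at the upper left, lower in T5 and higher in R5, and the red points lie together to the right of 0 and below 0.

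How near R5 came to the first nitrate day was tested against T1. Of the 225 members, 23 were lower in R5 and 5 were higher, against 4.59% and 9.03% of all models. The median log2 fold change was -0.41 over the members, -0.43 over the 196, -0.41 over the 29 and 0.08 over all models. All 28 calls were among the 196. Most members thus had no call in either direction, which does not show that their levels were alike. The largest falls were those of the neighbours Lj1g3v1180810.1 and Lj1g3v1180800.1, both with whole counts only. Lj1g3v1180800.1, of 1247 bp, had 180.0, 45.2 and 31.9 FPKM in R5, against 511, 468 and 542 FPKM in T1 (log2 fold change -2.46 ± 0.53, SE, edgeR adjusted p = 7.65e-04). Lj1g3v1180810.1, of 148 bp, had 249, 74.4 and 52.5 FPKM in R5, against 584, 816 and 939 FPKM in T1 (log2 fold change -2.54 ± 0.55, SE, edgeR adjusted p = 7.67e-04). R5 replicate 1 was the highest R5 library in both, and all R5 libraries were below T1. Lj1g3v1180800.1 had 4.24, 8.40 and 16.8 FPKM in R4, against 4.03, 2.47 and 5.04 FPKM in R3, and these groups overlapped (log2 fold change 1.42 ± 0.53, SE, edgeR adjusted p = 0.0601).

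The 5 members called higher in R5 than in T1 were Lj5g3v1514670.1, Lj0g3v0289849.2, Lj4g3v0772160.1, Lj5g3v1794670.1 and Lj5g3v1794660.1, of which the last 3 were named after their values were seen. Lj5g3v1514670.1 had 638, 276 and 484 FPKM in R5, against 123, 120.2 and 155 FPKM in T1 (log2 fold change 1.88 ± 0.28, SE, edgeR adjusted p = 8.75e-06). Its R5 libraries were all above its T1 libraries. Lj0g3v0289849.2 had 1379.8, 586 and 785 FPKM in R5, against 398, 375 and 481 FPKM in T1 (log2 fold change 1.20 ± 0.40, SE, edgeR adjusted p = 0.0239). Lj5g3v1794670.1 had 943, 384 and 669.9 FPKM in R5, against 325, 243 and 386 FPKM in T1 (log2 fold change 1.13 ± 0.35, SE, edgeR adjusted p = 0.0142). Lj4g3v0772160.1 had 539, 149 and 265 FPKM in R5, against 117, 146 and 159 FPKM in T1 (log2 fold change 1.27 ± 0.40, SE, edgeR adjusted p = 0.0169). R5 replicate 2 lay within the T1 range in these 2 models, so their groups overlapped. The neighbours Lj5g3v1794670.1 and Lj5g3v1794660.1 had whole counts in only 13.9% of libraries. R5 replicate 1 was the highest R5 library of each of the 5, and the number of such members was 1 without it, 1 without T1 replicate 2 and 2 when only T1 and R5 were fitted. Lj5g3v1514670.1 kept its call under each alternative run. Without R5 replicate 1 the log2 fold change was 0.70 in Lj0g3v0289849.2, 0.56 in Lj4g3v0772160.1 and 0.71 in both Lj5g3v1794670.1 and Lj5g3v1794660.1.

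As a description against T0, the 196 members stood at a median of 9.73% of their T0 mean in R1 and 24.4% in R2. The median was 18.2% in R3, 38.1% in R4 and 60.9% in R5. In R5, 156 of the 196 were at or above 50% of T0 and 11 were at or above T0. The highest R5 to T0 ratios among all members were those of Lj5g3v1514670.1, at 638, 276 and 484 FPKM in R5 and 283, 305 and 253 FPKM in T0, and Lj5g3v1794670.1, at 943, 384 and 669.9 FPKM in R5 and 469, 424 and 388 FPKM in T0. In Lj5g3v1514670.1 and in Lj5g3v1794670.1, 1 of the 3 R5 libraries, replicate 2, lay within or below the T0 range. Members that fell below 50% of T0 on day 1 stood at a median of 66.1% of T0 in R5, those of day 2 at 59.8%, those of day 3 at 63.6%, those of day 4 at 62.1% and those of day 5 at 49.6%.

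Most of the 196 members had similar profiles. Over the 30 libraries outside T0 and T6, the Pearson correlation of a member's log2 level with the median profile of the members had a median of 0.921 and was at least 0.9 for 117 of the 196. The median profile was that of the 196 members themselves, which were all chosen for a fall from T0 to T6. High correlations are thus in part built in, and these values describe profiles that share libraries, depth and, for some members, reads. The lowest was Lj0g3v0320349.1 at -0.08. In the 29 members high in T0 replicate 1 the values ran from -0.07 to 0.06.

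Many members are neighbours by ID or near copies of each other, so 225 models are fewer independent signals. Of the 225, 121 lay in 31 runs of IDs no more than 100 apart, and the 225 made up 135 runs or single IDs. The longest run, of 19 members from Lj0g3v0028569.1 to Lj0g3v0028909.1, belongs wholly to the 29. A run of 14 members from Lj0g3v0044179.1 to Lj0g3v0044419.1 and one of 13 members from Lj0g3v0295189.1 to Lj0g3v0295419.1 summed to 2511 and 2579 FPKM in T6, against 30332 and 31160 FPKM in T0. Each member of the first run had a partner in the second whose counts ran with it over the 36 libraries at a correlation of at least 0.999. Runs of 4 members starting at Lj0g3v0281389.1, Lj4g3v0254300.1 and Lj6g3v0216910.1 were paired likewise, at 0.998 or more. Whether each pair is 2 loci or 1 sequence placed in several places was not tested.

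By ID, 95 of the 225 members (42.2%) begin with Lj0g, against 29.3% of the 590 other abundant loci and 35.3% of all loci. All 29 members high in T0 replicate 1 are among these 95, so the higher share in members rests in part on them. The 29 were also mostly short, as given above, so the member values for length that follow rest in part on them too. Models under 300 bp made up 30.7% of the members, 41.2% of the other abundant loci and 11.4% of all loci. The median length was 773 bp in members, 515.5 bp in the other abundant loci and 1115 bp in all loci. Abundant loci of both kinds thus held more short models than the table as a whole. FPKM divides by length, so a short model needs few counts to reach a given FPKM.

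The 590 other abundant loci reached the T0 threshold without meeting the fall to T6. Their few falls in T5, the day before T6, thus follow in part from that choice. The counts below do not show what abundance in T0 alone would give. Between T5 and T1, 195 of the 225 members were lower, against 55 of the 590 other loci (9.32%), and 36 of the 590 were higher. Between R5 and R1, 184 members were higher, against 34 of the 590 (5.76%), and 69 of the 590 were lower. The median log2 fold change was -2.82 in members and -0.26 in the other loci for T5 over T1, and 2.32 and -0.09 for R5 over R1. As a share of T0, the median of the other loci was 59.2% in T6 and 89.3% in R5. The counts describe these lists, and no test between lists was made.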

How the data were processed

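Root nodule RNA was profiled in 36 libraries. The submitters' processing notes name fastp 0.22.0, HISAT2 and featureCounts. Neither the genome build nor the counting options are stated there. The authors deposited estimated counts and FPKM values for 50526 models, of which 1 carries another kind of ID. All columns matched a sample, and 0 were unused. A RefSeq gene table of another assembly matched 0 of the IDs.

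Members came from the FPKM values by the rule given in the report. Estimated counts were rounded to whole numbers and fitted with edgeR 4.0.16 in R 4.3.3 (TMM, filterByExpr, glmQLFit, glmQLFTest) in 1 model of all 36 libraries, with Benjamini-Hochberg adjustment over 50475 models. The call needed an adjusted p under 0.05 and at least a 2-fold change. Levels are deposited FPKM. P-values set a difference against the spread between libraries of the same group, as estimated over all groups together. R4 and R5, whose replicates were spread more widely, were thus tested with a spread shared with the other groups. No pair of libraries in a group was alike within sampling noise (chi-square per degree of freedom of at least 10.75). The fit was also run on simulated data, with the same spread per model in all groups, and the outcome is not given here. That run does not bear on groups that differ in spread.

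The members, lists and tests were chosen with earlier results of these data known. Members were named by rule: the 5 highest in T0, the 2 largest called rises and falls without overlap in each of 5 comparisons, the 2 loci on each side of both limits, the 2 highest and lowest R5 to T0 ratios, and the 2 least falls. Others are said to have been named after their values were seen. Alternatives were RLE size factors, no count filter, DESeq2 1.42.0, only the groups compared, counts summed per locus, a replicate block, other limits of the rule and each library left out. Fits without the T0 libraries and counts without the 29 members high in T0 replicate 1 were chosen after seeing the data.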

Additional observations from a re-analysis of the deposited data

How the results depend on the processing

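Of 211 count values under an alternative, 194 lay within 1.5 times the main count and 17 did not; the cause was not tested in any of them. The number of members, 225, was 355 with a T0 threshold of 100 FPKM and 443 with a fall of at least 2-fold, and 203 to 269 without any 1 T0 or T6 library. Fitting only the groups compared gave 2 members higher in R5 than in T1 (5 in the full fit), 14 lower in T4 than in T3 (25) and 0 higher in R5 than in R4 (37).

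Leaving out 1 library at a time gave 193 to 195 members lower in T5 than in T1, 183 to 186 higher in R5 than in R1, 175 to 186 higher in R5 than in T5, and 24 to 28 lower and 1 to 7 higher in R5 than in T1. By step, it gave 44 to 69 lower for T2 over T1, 21 to 98 for T3 over T2, 10 to 42 for T4 over T3 and 68 to 100 for T5 over T4. It gave 124 to 137 higher for R2 over R1, 12 to 24 lower for R3 over R2, 100 to 153 higher for R4 over R3 and 29 to 48 for R5 over R4. The log2 fold change of Lj0g3v0320349.1 in T5 over T1 turned to 0.84 without T1 replicate 1, 0.19 without T5 replicate 2 and 0.07 without T5 replicate 3, and ranged from -0.954 to 0.839 over single libraries left out. Of 299 values of named members, 274 kept their direction and side of the threshold, 22 lost their call and these 3 turned round.

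Replicate numbers did not pair the samples throughout: in 0 of 12 comparisons was every same-numbered correlation over 0.1. In 1 of 12, T5 over T1, every library correlated best with its own number, at 0.131, 0.229 and 0.0909. With the replicate block, 195 members were lower in T5 than in T1, 184 higher in R5 than in R1 and 21 lower in T4 than in T3, and no count moved by over 1.5 times. Short models and divided counts limit which locus a value belongs to, 3 libraries per group limit the single-day steps, and a change in a bulk library cannot be split into cell number and RNA per cell.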
